A study of Homo sapiens with 3 samples.

Results

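Genes of glucose breakdown and of the response to low oxygen were followed in UM-UC-3, a human bladder cancer cell line, after depletion of the long noncoding RNA DANCR. The list held 37 genes grouped by function: glucose and lactate transporters, the enzymes of glycolysis and their regulators, the oxygen-sensing genes HIF1A, EGLN1 and EGLN3, and targets of hypoxia signalling outside glycolysis. Of these, 34 had a probe set that names that gene alone, out of 19775 such genes on the array, and 33 of the 34 counted as measured, out of 12436 measured genes. A gene counted as measured when its brightest probe set lay above an intensity of 10.5, the median of all values, in at least 1 array, and all 33 lay above it in all 3 arrays. The exceptions were SLC2A3, whose 3 probe sets all lay below that floor in every array, and SLC16A1, SLC16A3 and CA9, to which the annotation used here assigned no probe set of their own.

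The cells were given 75 nM of a negative control siRNA, of DANCR siRNA1 or of DANCR siRNA2, and RNA was taken 48 h later. Each group was a single Affymetrix array, so no value has a replicate and no difference was tested. The labels name no low-oxygen treatment. All values are intensities on a linear scale, and a log2 ratio of 1 or -1 is a 2-fold difference between a pair of arrays. The siRNAs are shown because they define the groups, in lower case with the 3′ TT overhang in capitals:
control siRNA: uucuccgaacgugucacguTT
DANCR siRNA1: gcguacuaacuuguagcaaTT
DANCR siRNA2: gagcuagagcagugacaauTT

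DANCR read 671 (control), 116 (siRNA1) and 126 (siRNA2), which is 17.3% and 18.8% of the control. In each of the 3 arrays 48.9% to 49.3% of probe sets lay above the floor. The floor is the median of all values and each array's own median was 10.5. These shares therefore cannot show whether the arrays had similar depth of signal. The deposited value was equal in all 3 arrays for 1492 of the 12436 measured genes and for 5 of the 33 measured list genes. Of 15 urothelial and epithelial markers 6 were measured. Summed over all listed markers with a probe set, those below the floor included, intensities were 1457, 843 and 1174 in the control, siRNA1 and siRNA2 arrays. KRT18, at 1315, 711 and 1022, made up most of each sum. The uroplakins UPK1A, UPK1B, UPK2 and UPK3A, which define differentiated urothelium, were below the floor in every array. Of 5 mesenchymal markers 4 were measured. Sums taken in the same way were 5815, 4866 and 5284, mostly from VIM at 5322, 4412 and 4861. Both sums were lowest with siRNA1, but the other measured markers did not share 1 direction. KRT7 (log2 ratios of -0.50 and -0.24 with siRNA1 and siRNA2), FOXA1 (-0.26 and -0.26) and ZEB1 (-0.08 and -0.43) were lower with both. PPARG (0.25 and 0.25) and FN1 (0.16 and 0.70) were higher with both. CDH2 (-0.41 and 0.20) was lower with siRNA1 only, GATA3 (0.00 and 0.80) higher with siRNA2 only, and KRT8 (0.00 and -0.02) level. The part of these markers in the values below was not tested. Leukocyte, fibroblast and endothelial, and erythroid and hepatic markers, of which 2 of 5 were measured in each list, did not exceed an intensity of 25.0 on any array. Their sums, which also include markers below the floor, went from 50.3 in the control to 49.3 and 44.8 for the leukocyte list. For the fibroblast and endothelial list they went from 58.4 to 50.3 and 53.0. For the erythroid and hepatic list they went from 55.3 to 48.4 and 49.4. Against a floor of 10.5 these values are low for a cell line, and how much of them is background signal was not tested. For any of the marker lists, fewer cells and less RNA per cell cannot be told apart in a bulk measurement.

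Glycolysis splits glucose into pyruvate in the cytosol, and tumour cells often turn much of that pyruvate into lactate even where oxygen is present. Low oxygen stabilises HIF1A, the regulated subunit of the transcription factor HIF-1, because the prolyl hydroxylases EGLN1 and EGLN3 need oxygen to mark it for destruction. HIF-1 then binds short DNA elements near glycolytic genes, PDK1, BNIP3, CA9 and others, and raises their transcription. The regulation of HIF1A is largely at the protein level, which an array of RNA does not show.

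With siRNA1, 22 of the 33 measured genes were lower than in the control, 5 were higher and 6 were equal, whereas 39.5% of all measured genes were lower. Their median log2 ratio was -0.10, against 0.00 for all measured genes. Centring the arrays on their medians gave 28 lower and 5 higher with siRNA1, where 58.9% of all genes were lower. With siRNA2, 16 were lower, 12 higher and 5 equal, with a median of 0.00, against 36.2% lower and a median of 0.00 for all genes. With the arrays centred on their medians, which moved the median of all genes to -0.08 with siRNA2, that split was 24 lower and 9 higher, where 62.3% of all genes were lower. Most of these differences were small. At 2-fold, 2 list genes were lower with siRNA1 (6.06% of 33), BNIP3 and PFKFB4, while 1.75% of all measured genes were. No list gene was 2-fold higher with siRNA1, where 1.87% of all genes were. ADM alone was 2-fold higher with siRNA2 (3.03%), against 2.15% of all genes, and none was 2-fold lower, against 1.21%. No list gene passed 2-fold in 1 direction with both siRNAs, for which all genes gave 0.716% higher and 0.281% lower.

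At 1.5-fold, 5 list genes were lower with siRNA1 (15.2%), namely SLC2A1, PFKM, ENO2, PFKFB4 and BNIP3, against 6.03% of all measured genes. None was 1.5-fold higher, against 7.14%. With siRNA2, NDRG1, ADM and P4HA2 were 1.5-fold higher (9.09%), which is close to the 8.75% of all genes. PFKFB4, PDK3, EGLN3 and P4HA1 were 1.5-fold lower with siRNA2 (12.1%), against 4.29%. PFKFB4 was the single list gene 1.5-fold lower with both siRNAs, against 1.29% of all genes, and none was higher with both, against 3.50%. The siRNA1 and siRNA2 ratios share their denominator, the control array, and a high or low value there moves them together.

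**Figure D1:**
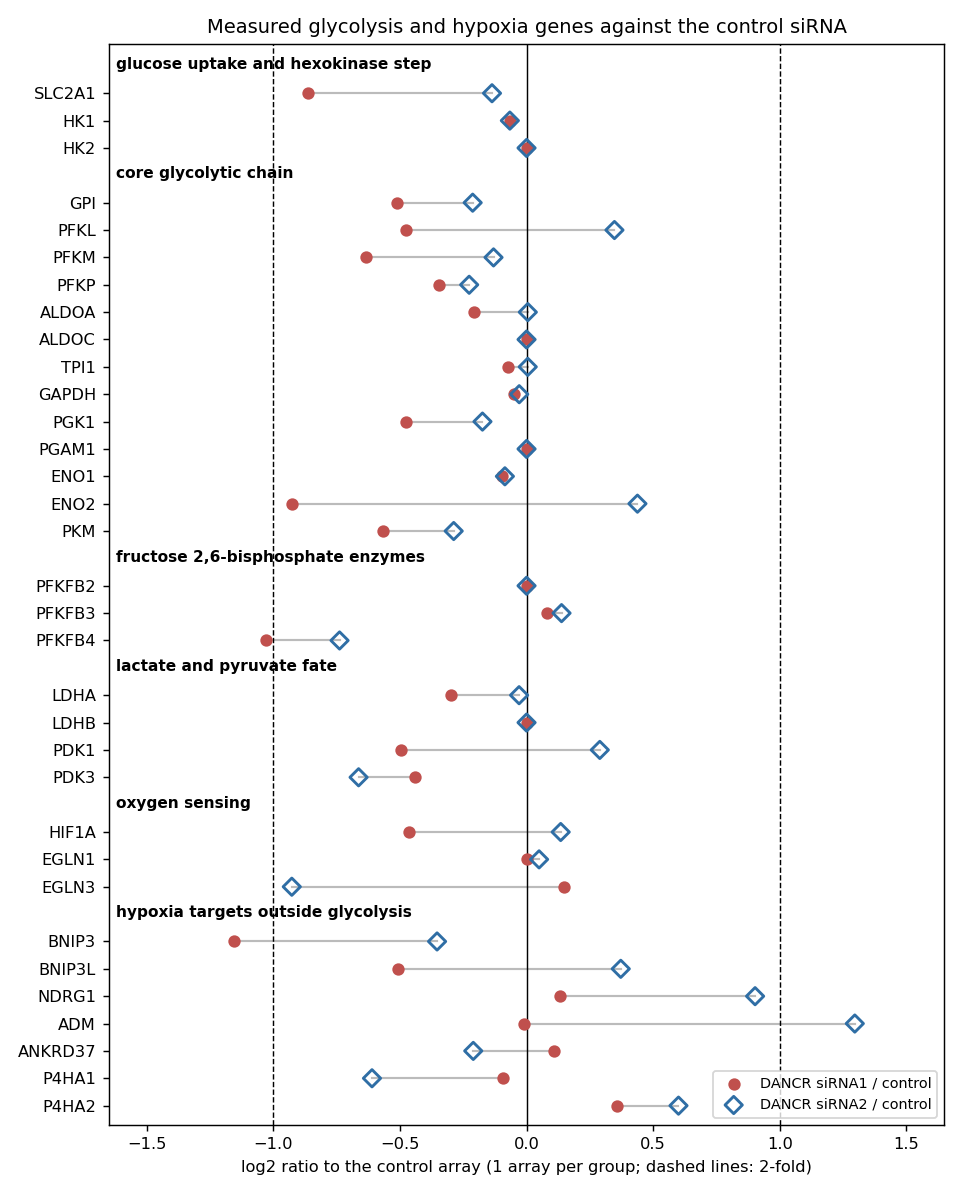
Log2 ratio of intensity to the control array for the 33 measured genes, by role, with DANCR siRNA1 as filled circles and DANCR siRNA2 as open diamonds, 1 array per group; the dashed lines mark 2-fold. BNIP3 (-1.15) and PFKFB4 (-1.03) lie beyond 2-fold with siRNA1 and ADM (1.30) with siRNA2, and most circles lie left of 0.

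Glucose enters the cell through facilitative transporters and is trapped by hexokinase. SLC2A1, the main glucose transporter GLUT1, had intensities of 154 (control), 84.5 (siRNA1) and 139.9 (siRNA2). The siRNA1 array was the low one, with log2 ratios of -0.86 and -0.14 for siRNA1 and siRNA2, and its other probe set lay below the floor. HK1, the widely expressed hexokinase, was at 113, 108 and 108, a difference of -0.07 in both ratios. HK2, the isoform often induced in tumours, had the same value of 302 in every array on its brightest probe set.

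The dimmer HK2 probe sets did not share that pattern. One read 61.7 (control), 24.7 (siRNA1) and 71.5 (siRNA2), or log2 ratios of -1.32 and 0.21. The other read 23.2, 11.9 and 27.2, or -0.97 and 0.23. Both were low with siRNA1 only, so the probe sets of HK2 disagree on whether it differed in that array. Which of them follows the HK2 mRNA was not tested.

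The core chain runs from glucose 6-phosphate to pyruvate, and its 13 genes were all measured. With siRNA1, 11 were lower than in the control (84.6%, against 39.5% of all measured genes), 2 were equal and none was higher. The median log2 ratio of the 13 was -0.34. With siRNA2, 7 were lower (53.8%, against 36.2%), 4 higher and 2 equal, with a median of -0.03. The median of all measured genes was 0.00 with each siRNA. The genes equal in all arrays were ALDOC and PGAM1, and none of the 11 lower ones reached 2-fold.

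GPI, which turns glucose 6-phosphate into fructose 6-phosphate, was at 495, 347 and 427 in the control, siRNA1 and siRNA2 arrays, or -0.51 and -0.21 on the log2 scale. Phosphofructokinase, the committing step, has 3 isoforms. The muscle form PFKM was at 252, 162 and 229.9 (-0.64 and -0.13). The platelet form PFKP was at 595, 469 and 509 (-0.34 and -0.23). The liver form PFKL was at 53.5, 38.5 and 68.1, so the siRNA arrays lay on either side of the control (-0.47 and 0.35). All isoforms were lowest with siRNA1. The other PFKL probe set, at 28.7, 23.9 and 26.7, was also lowest there (-0.26) but below the control with siRNA2 (-0.10).

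The middle of the chain cleaves the sugar and oxidises the products. ALDOA, the main aldolase, was at 2881, 2494 and 2891 (-0.21 and 0.00). With siRNA1 the remaining 2 ALDOA probe sets stood at -0.11 and -0.17. ALDOC, the brain aldolase, was at 14.5 in all arrays, close to the floor. TPI1, which interconverts the 3-carbon products, was at 2672, 2536 and 2681 (-0.08 and 0.00). GAPDH, often used as a reference gene, was at 7707, 7446 and 7554 (-0.05 and -0.03). Its 2 other gene probe sets and the 3 GAPDH quality-control probe sets of the array had log2 ratios of -0.07 to -0.16 with siRNA1 and of -0.01 to -0.13 with siRNA2. The 3' over 5' ratio of those control probe sets, a sign of how complete the labelled RNA was, stood at 1.25, 1.29 and 1.35. Its part in the values of other genes was not tested.

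PGK1, the first enzyme of the chain to make ATP, was at 1892 (control), 1362 (siRNA1) and 1677 (siRNA2). The control was highest and siRNA1 lowest, with log2 ratios of -0.47 and -0.17. Its 4 other probe sets above the floor had the same order of control, siRNA2 and siRNA1. They gave -0.12 to -0.69 with siRNA1 and -0.11 to -0.34 with siRNA2. PGAM1, the mutase that follows, had 2349 in all 3 arrays on its single probe set.

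The enolases make phosphoenolpyruvate. ENO1, the common form, was at 2054, 1919 and 1936 (-0.10 and -0.09). On 2 further ENO1 probe sets the ratios were -0.10 and -0.17 with siRNA1, and -0.20 and -0.18 with siRNA2. ENO2, the neuronal form and a known hypoxia target, was at 115 (control), 60.5 (siRNA1) and 156 (siRNA2). The siRNA arrays lay on opposite sides of the control, at -0.92 and 0.44, and differed from each other by 2.57-fold on a single probe set. PKM, the pyruvate kinase of tumour cells, was at 409, 276 and 335 (-0.57 and -0.29), and its other probe set at 41.9, 22.7 and 38.5 (-0.89 and -0.12). That probe set, too, was lowest with siRNA1.

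**Figure D2:**
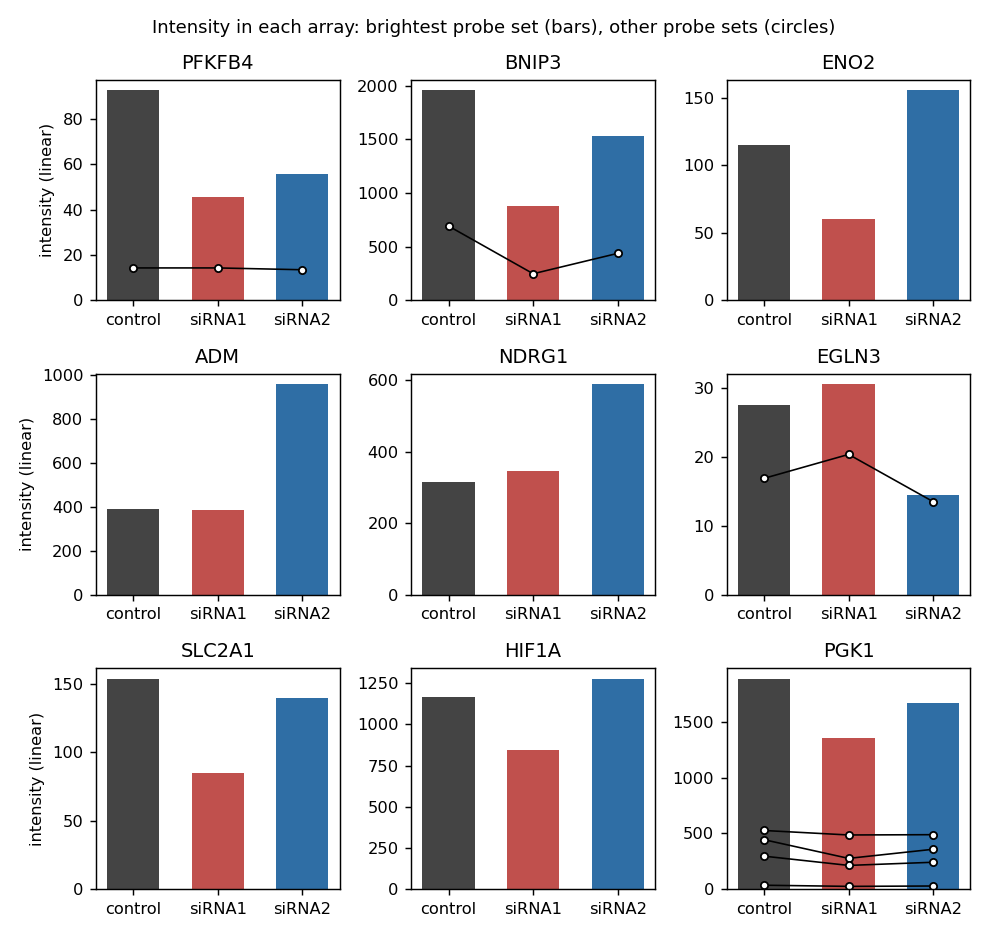
Intensity on a linear scale in the control, DANCR siRNA1 and DANCR siRNA2 arrays (1 each) for 9 genes. Bars show the brightest probe set and joined circles the other probe sets above the floor in at least 1 array; BNIP3 reads 1956, 879 and 1531 and ADM 389, 386 and 956.

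Fructose 2,6-bisphosphate, the strongest activator of phosphofructokinase, is made and removed by the PFKFB enzymes. PFKFB4, a hypoxia-induced isoform, was at 92.6 (control), 45.4 (siRNA1) and 55.5 (siRNA2). The control stood above both siRNA arrays, 2.04-fold and 1.67-fold. Its other probe set, much dimmer, was at 14.3, 14.3 and 13.5, with ratios of 0.00 and -0.08, and by the median over both probe sets the siRNA1 ratio was -0.51, short of 2-fold. PFKFB3, the other isoform tied to proliferation and hypoxia, was at 185, 195 and 203, slightly higher with each siRNA (0.08 and 0.14). PFKFB2, the heart isoform, was at 26.2 in all arrays.

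Lactate dehydrogenase regenerates NAD+ for glycolysis by turning pyruvate into lactate. LDHA was at 5153, 4192 and 5049, again lowest with siRNA1 (-0.30 and -0.03), whereas LDHB had 5849 in all arrays and -0.06 and -0.08 on its other probe set. The pyruvate dehydrogenase kinases keep pyruvate out of the mitochondria. PDK1, a classical hypoxia target, was at 189, 134 and 231, below the control with siRNA1 (-0.49) and above it with siRNA2 (0.29). Its other probe sets, at 19.9 and 19.5, were equal in all arrays. PDK3 was at 144, 106 and 90.9, below the control with both (-0.44 and -0.66). All 4 of its other probe sets were also below the control in both. One, at 33.7, 16.9 and 22.9, was lowest with siRNA1, and another, at 41.9, 30.5 and 24.7, was lowest with siRNA2, as the brightest was. No ratio is given for the lactate carriers SLC16A1 and SLC16A3.

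HIF1A was at 1164 (control), 845 (siRNA1) and 1278 (siRNA2). The siRNA1 array was the low one, at -0.46, against 0.13 with siRNA2. The array measures its RNA and not the protein that oxygen controls. EGLN1, the main oxygen-sensing hydroxylase, was at 258, 258 and 267 (0.00 and 0.05), and 2 further probe sets differed from the control by about 0.01. EGLN3, a hydroxylase that HIF-1 itself induces, was at 27.6, 30.6 and 14.5, low with siRNA2 only (0.15 and -0.93). Its other probe set, at 16.9, 20.4 and 13.5, ran the same way (0.27 and -0.32) but both lie near the floor, and with the floor at the 70th percentile of all values EGLN3 was at 0.00 with siRNA2.

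BNIP3 and BNIP3L mark mitochondria for removal by mitophagy. BNIP3 was at 1956 (control), 879 (siRNA1) and 1531 (siRNA2). The control stood 2.23-fold above siRNA1 and 1.28-fold above siRNA2, and its other probe set, at 692, 249 and 438, gave log2 ratios of -1.48 and -0.66. Both probe sets put the arrays in the order control, siRNA2, siRNA1. BNIP3L was at 524, 369 and 678 (-0.51 and 0.37). Its other probe set, at 394, 267 and 398, was likewise low with siRNA1 (-0.56) and level with the control with siRNA2 (0.01).

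The hypoxia targets NDRG1 and ADM were set apart by the siRNA2 array. ADM, the vasodilator peptide adrenomedullin, was at 389, 386 and 956, 2.46-fold higher with siRNA2 and level with siRNA1 (-0.01). NDRG1, a stress-induced differentiation gene, was at 315, 345 and 588 (0.13 and 0.90). Each rests on 1 probe set. ANKRD37, a HIF-1 target of unclear function, was at 73.8, 79.5 and 63.8 (0.11 and -0.21).

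P4HA1 and P4HA2 are the catalytic subunits of collagen prolyl hydroxylase, and HIF-1 induces both. P4HA1 was at 178, 167 and 117, lowest with siRNA2 (-0.09 and -0.61). P4HA2 was at 131, 167 and 198, highest with siRNA2 (0.36 and 0.60). The other P4HA2 probe set, at 76.1, 71.3 and 57.2, pointed the other way (-0.09 and -0.41), so the direction of P4HA2 depends on the probe set. Of the 7 measured hypoxia targets outside glycolysis, 4 were lower with siRNA1, against 39.5% of all measured genes, though ADM (-0.01) and P4HA1 (-0.09) only slightly. With siRNA2, 4 of 7 were higher, against 44.99%, and P4HA2 is among them on its brightest probe set.

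The siRNA arrays were also set against each other, a comparison that leaves the control array out. Of the 33 genes, 23 were lower with siRNA1 than with siRNA2, 4 were higher and 6 equal, with a median log2 ratio of -0.21. Among all measured genes 41.8% were lower, and the median was 0.00. With the arrays centred on their medians, which moved the median of all genes to 0.07, the split was 19 lower and 14 higher, where 35.2% of all genes were lower. ENO2 (2.57-fold) and ADM (2.47-fold) were at least 2-fold lower with siRNA1 (6.06% of 33), against 2.40% of all genes. EGLN3 was 2.10-fold higher (3.03%), against 1.51%.

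At 1.5-fold, 9 genes were lower with siRNA1 than with siRNA2 (27.3%): SLC2A1, PFKL, ENO2, PDK1, HIF1A, BNIP3, BNIP3L, NDRG1 and ADM. The share among all measured genes was 8.57%. EGLN3 alone was 1.5-fold higher, against 5.21%. The list is brighter than the array as a whole, with 81.8% of its measured genes at a mean intensity of at least 100, against 42.0%. Among genes that bright, 8 of 27 list genes (29.6%) were 1.5-fold lower with siRNA1 than with siRNA2, against 8.86% of 5225 genes, and 4 of 27 (14.8%) were 1.5-fold lower with siRNA1 than in the control, against 6.89%.

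The 9 genes reached that gap by different routes. For SLC2A1 and BNIP3 both siRNA arrays were below the control, with siRNA1 further away. For PFKL, ENO2, PDK1, HIF1A and BNIP3L siRNA1 was below the control and siRNA2 above it. ADM and NDRG1 were near the control with siRNA1 and higher with siRNA2. Over the whole list, 14 of 33 genes were lower with both siRNAs (42.4%) against 23.7% of all genes, and 8 were lower with siRNA1 and higher with siRNA2 (24.2%) against 12.5%. The reverse, higher with siRNA1 and lower with siRNA2, held for EGLN3 and ANKRD37 (6.06%), against 9.48% of all genes. Higher with both siRNAs were 3 of 33 (9.09%), against 29.2%.

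**Figure D3:**
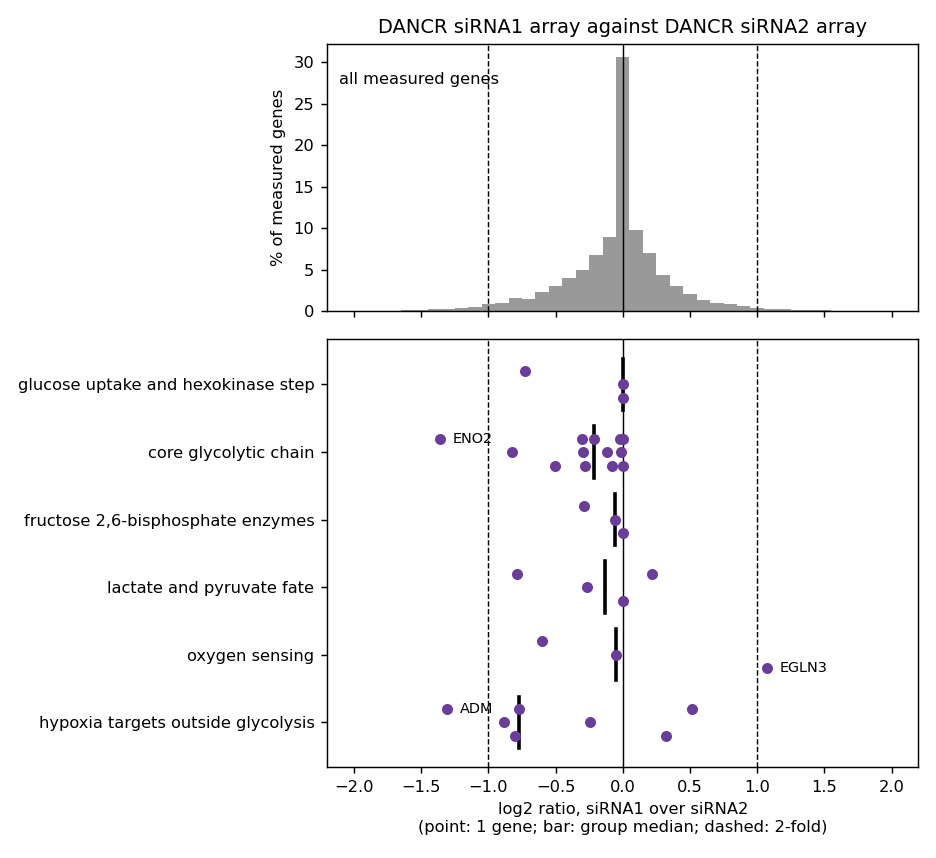
Log2 ratio of the DANCR siRNA1 array to the DANCR siRNA2 array. The upper panel gives the percentage of all 12436 measured genes per bin of 0.1, and the lower panel each of the 33 measured list genes by role, with the group median as a bar; the core glycolytic chain has a median of -0.21 and the hypoxia targets outside glycolysis one of -0.77.

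The further probe sets served as a check within each gene. For 18 measured genes there were 31 other probe sets above the floor in at least 1 array. With siRNA1, 21 of them had the sign of the brightest probe set, 1 the opposite sign, and 9 were comparisons in which a ratio was 0. With siRNA2, 19 had the same sign, 4 the opposite and 8 held a ratio of 0. Between the siRNA arrays the counts were 19, 5 and 7. The opposite sign in siRNA1 was that of P4HA2, and in siRNA2 those of ALDOA, PFKL, P4HA2 and TPI1, of which ALDOA and TPI1 differed from the control by less than 0.08 on either probe set.

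**Figure D4:**
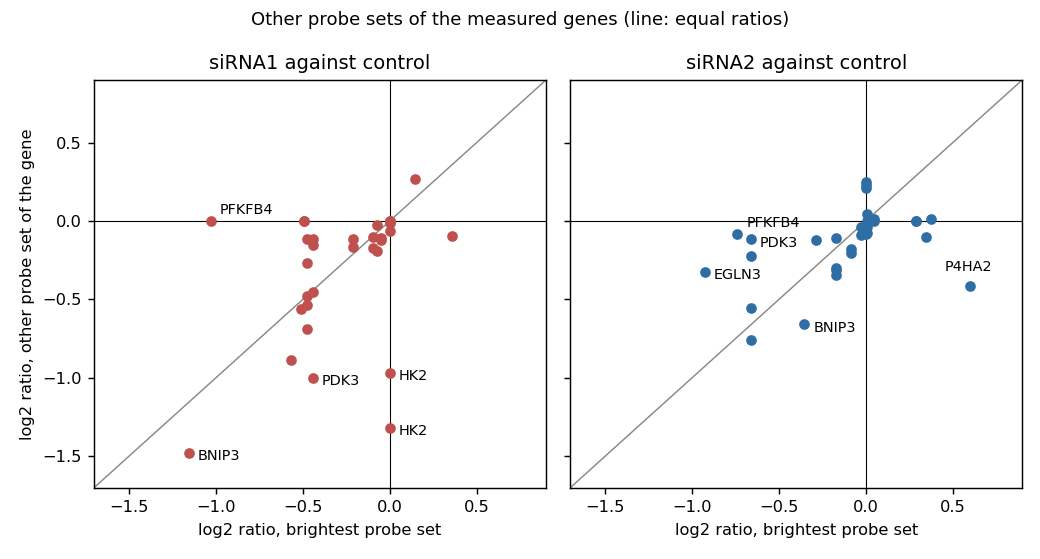
Log2 ratio to the control of each other probe set (vertical axis) against that of the brightest probe set of the same gene (horizontal axis), for siRNA1 on the left and siRNA2 on the right; the line marks equal ratios. BNIP3 lies low on both axes with siRNA1 (-1.15 and -1.48), while HK2 is at 0.00 on its brightest probe set and at -1.32 and -0.97 on the others.

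HIF-1 binds a core of 5 bases, ACGTG or GCGTG, on either strand, and these letters were looked for in the 250 bases before each transcript start (RefSeq, GRCh38.p14). Of the list genes 32 had at least 1 window, 59 windows in all. ACGTG stood in 23 of the 59 windows (39.0%), against 18.5% of 35116 windows of all genes and 21.9% of the 14647 windows of measured genes. By gene it was found in 20 of 32 (62.5%), against 28.6% of measured genes with a window. The list genes had more windows each (1.84 against 1.46). The 32 include CA9 and SLC16A3, which hold ACGTG but were not measured. Of the measured list genes with a window, 18 held it and 12 did not. GCGTG stood in 30.5% of the list windows, against 32.2% of all windows and 43.0% of those of measured genes. A match of such short letters is a description and not a binding site.

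Upstream sequences are shown for BNIP3, ENO2, PFKFB4 and ADM, 4 of the 5 genes with a 2-fold difference in any comparison (EGLN3, near the floor, is left out, a choice made after its values were seen), with each ACGTG or GCGTG on either strand in capitals. Each is the strand of the gene, 5′ to 3′, and ends at the base before the transcript start. BNIP3 (minus strand, chr10:131981924-131982173) holds ACGTG on both strands in the palindrome CACGTG and 4 copies of GCGTG, between 143 and 104 bases before the start. ENO2 (plus strand, chr12:6914330-6914579) holds a single ACGTG, 118 bases before it. PFKFB4 (minus strand, chr3:48556804-48557053) and ADM (plus strand, chr11:10304823-10305072) hold no ACGTG and 1 GCGTG each, 166 and 101 bases before the start.
BNIP3: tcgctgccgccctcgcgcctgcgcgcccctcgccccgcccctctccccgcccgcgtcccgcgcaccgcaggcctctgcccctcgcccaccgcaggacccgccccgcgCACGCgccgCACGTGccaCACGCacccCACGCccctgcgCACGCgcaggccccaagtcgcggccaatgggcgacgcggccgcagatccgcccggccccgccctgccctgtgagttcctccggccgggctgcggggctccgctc
ENO2: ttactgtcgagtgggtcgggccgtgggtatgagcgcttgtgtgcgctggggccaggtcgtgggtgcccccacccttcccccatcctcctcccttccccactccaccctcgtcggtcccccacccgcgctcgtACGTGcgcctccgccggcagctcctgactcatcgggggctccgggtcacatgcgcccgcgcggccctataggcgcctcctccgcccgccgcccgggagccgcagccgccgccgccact
PFKFB4: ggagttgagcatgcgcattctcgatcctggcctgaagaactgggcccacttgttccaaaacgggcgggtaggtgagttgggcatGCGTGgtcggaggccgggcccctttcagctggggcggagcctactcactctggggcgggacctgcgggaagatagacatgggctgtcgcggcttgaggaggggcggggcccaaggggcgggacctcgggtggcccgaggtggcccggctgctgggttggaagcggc
ADM: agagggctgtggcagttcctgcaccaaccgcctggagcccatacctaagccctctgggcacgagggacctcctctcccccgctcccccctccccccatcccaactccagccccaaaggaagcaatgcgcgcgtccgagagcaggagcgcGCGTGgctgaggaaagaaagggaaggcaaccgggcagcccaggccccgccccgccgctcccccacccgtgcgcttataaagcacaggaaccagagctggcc

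The 18 measured genes with ACGTG had a median log2 ratio of -0.25 with siRNA1 and -0.03 with siRNA2, and the 12 without it -0.08 and -0.03. Between the siRNA arrays the order was the other way, with -0.10 for those with ACGTG and -0.26 for those without. LDHA, with 5 matches at its first listed start, had a siRNA1 ratio of -0.30. Its matches 185 and 184 bases before that start overlap, as do those at 87 and 86. GAPDH, with 2 overlapping matches, had a siRNA1 ratio of -0.05. HK2 had matches at both of its starts and equal values on its brightest probe set.

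**Figure D5:**
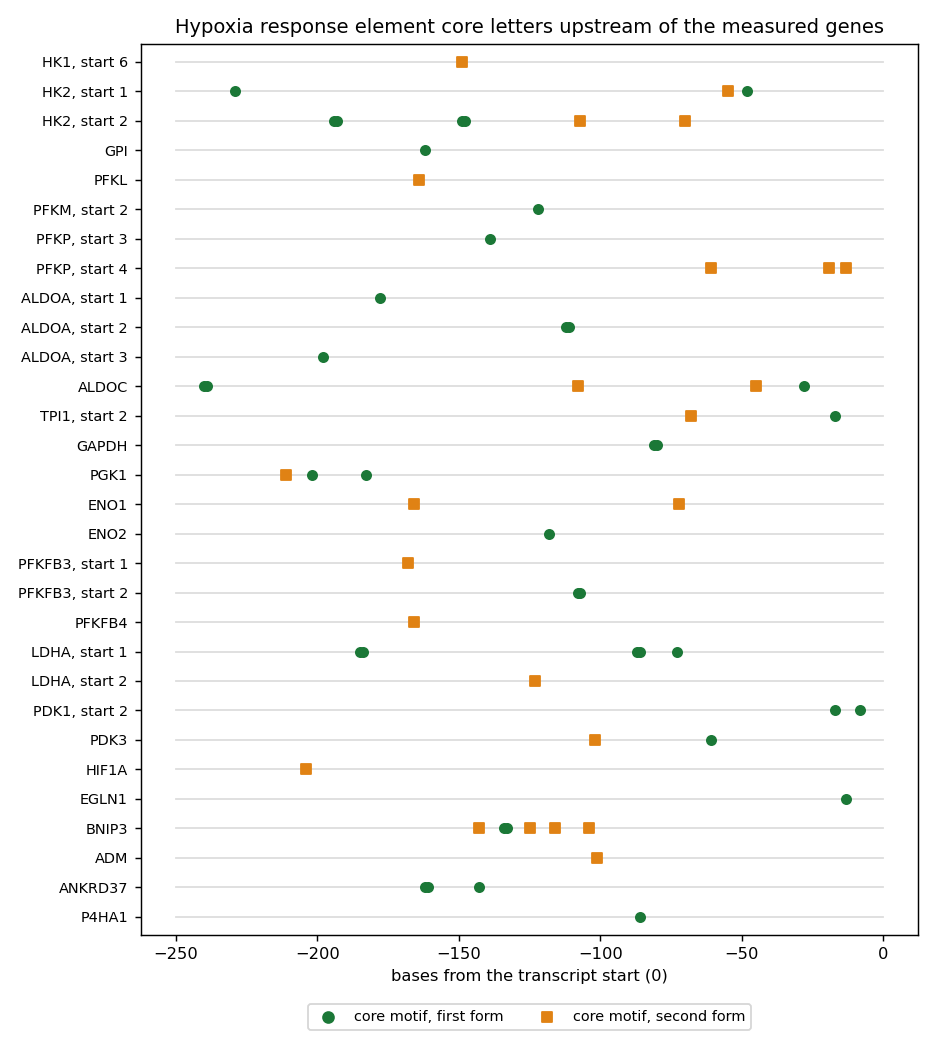
Positions of the core letters in the 250 bases before each transcript start (0) of the measured genes that hold any, with ACGTG as circles (first form) and GCGTG as squares (second form), on either strand; genes with several starts have a line for each start with a match. BNIP3 has a cluster between 143 and 104 bases before its start.

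Related genes were taken from lists of the same pathways. Of 10 measured other glycolysis genes, none was 2-fold different with both siRNAs, against 0.716% higher and 0.281% lower among all measured genes. SLC2A6 alone was 2-fold lower with siRNA1 (1 of 10), against 1.75%. That transporter of the GLUT family was at 90.5, 35.6 and 107 (-1.35 and 0.24), lowest with siRNA1 as SLC2A1 was, but above the control with siRNA2. BSG, the chaperone of the lactate carriers, was at 130.04, 89.5 and 118 (-0.54 and -0.15). The list's medians were 0.00 with siRNA1 and 0.03 with siRNA2. BPGM (0.33 and 0.06) and PGM2 (0.01 and 0.07) were above the control with both, and FBP1, of gluconeogenesis, was below it near the floor (-0.38 and -0.46). The other PGM2 probe sets gave -1.23 and -0.41 with siRNA1, against its 0.01. With siRNA2 they gave -0.45 and -0.16, against its 0.07, so the direction of PGM2 depends on the probe set.

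Of 11 measured genes that bring pyruvate into the mitochondria, 7 were higher with siRNA1 and 9 with siRNA2, 7 of them with both. Of all measured genes 42.3% were higher with siRNA1, 44.99% with siRNA2 and 29.2% with both. The medians of these 11 were 0.06 and 0.14. None was at 2-fold, where 1.21% to 2.15% of all measured genes were in each direction with either siRNA. PDP1, the phosphatase that undoes the action of the PDK enzymes, was at 168, 286 and 288 (0.76 and 0.78). Its other probe set, at 21.8, 41.9 and 43.8, gave 0.94 and 1.01. PDP1 was thus higher in both siRNA arrays on both probe sets. DLD, the dehydrogenase subunit shared by several complexes, had 0.26 and 0.19, but -0.25 and -0.74 on its other probe set. PC, pyruvate carboxylase, had 0.24 and 0.14, and DLAT 0.14 and 0.16. The other DLAT probe sets gave -0.06 and -0.28 with siRNA1, and -0.16 and 0.17 with siRNA2.

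Of 7 measured pentose phosphate genes 3 were lower and 3 higher with each siRNA (42.9% each). Of all measured genes, 39.5% were lower and 42.3% higher with siRNA1, and 36.2% lower and 44.99% higher with siRNA2. RPE, which interconverts pentose phosphates, was at 206, 176 and 91.9 (-0.23 and -1.17). It was the 1 gene of 7 at 2-fold lower with siRNA2, against 1.21% of all measured genes. The other RPE probe sets above the floor gave -0.04 and -0.53 with siRNA2. RPIA, the isomerase of that branch, had 0.37 and 0.48, PGLS 0.18 and 0.29, and PGD, of the oxidative branch, -0.35 and -0.46.

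Of 10 measured other hypoxia regulators, 5 were higher with siRNA1 and 8 with siRNA2, against 42.3% and 44.99% of all measured genes. The medians were 0.02 and 0.25. None was at 2-fold, where 1.21% to 2.15% of all measured genes were in each direction with either siRNA. HIF1AN, which blocks the coactivator contact of HIF1A, was at 108, 151 and 156 (0.49 and 0.53). Another HIF1AN probe set was at 0.00 with each siRNA and the dimmest at 0.37. SIAH2, a ligase that targets EGLN proteins, had 0.58 and 0.48, and EPAS1, the HIF-2 alpha subunit, was at 559, 776 and 678 (0.47 and 0.28). EPAS1 was therefore highest with siRNA1, the array in which HIF1A was lowest. Each of these genes rests on 1 probe set, as the other EPAS1 probe sets lay below the floor in every array. VHL, which marks hydroxylated HIF subunits for destruction, was at 46.2, 39.1 and 29.2 (-0.24 and -0.66).

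Of 27 measured other hypoxia targets, 15 were lower and 11 higher with siRNA1, and 6 lower and 19 higher with siRNA2. Of all measured genes, 39.5% were lower and 42.3% higher with siRNA1, and 36.2% lower and 44.99% higher with siRNA2. The medians were -0.05 and 0.11. At 2-fold, 1 of the 27 was higher and 1 lower with siRNA1, against 1.87% and 1.75% of all measured genes. With siRNA2, 3 of the 27 were 2-fold higher, against 2.15%, and none lower, against 1.21%. None passed 2-fold in 1 direction with both siRNAs, against 0.716% higher and 0.281% lower. ERO1A, which makes disulphide bonds in the endoplasmic reticulum, was at 205, 454 and 359.5 (1.15 and 0.81). On 2 further ERO1A probe sets the ratios were 0.37 and 0.80 with siRNA1, and 0.81 and 0.55 with siRNA2. STC1, the secreted stanniocalcin, was at 236, 91.3 and 281, low with siRNA1 only (-1.37 and 0.25). Another STC1 probe set gave -1.02 and 0.12, and the third lay near the floor.

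Higher with siRNA2 only, as ADM was, were TMEM45A, a membrane protein, at 17.9, 19.3 and 72.2 (0.11 and 2.02), DDIT4, an inhibitor of mTORC1, at 142, 159.9 and 317 (0.17 and 1.16), and GYS1, glycogen synthase, at 39.5, 36.9 and 88.5 (-0.10 and 1.16). Each rests on 1 probe set. KDM4B, a histone demethylase, had 0.41 and 0.78, and 0.36 and 0.84 on its next brightest probe set, while its dimmer ones lay between -0.19 and 0.13. STC2 had 0.98 and 0.35, and ANGPTL4, a secreted lipase inhibitor, was at 69.8, 46.9 and 42.8 (-0.57 and -0.70).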

How the data were processed

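The deposited values are linear intensities of 54675 probe sets on each array. The authors' normalization is not given in the sources used here, and the submitters' processing notes name GCOS 1.4. Many values are equal between arrays (tolerance 1e-09), which gives ratios of exactly 0. Probe sets were assigned with the array's annotation: 41097 name 1 gene and were used, 1801 name several and 11777 none. The probe set with the highest mean stood for its gene, values below the 50th percentile (10.5) were raised to it, and log2 ratios were taken. No test was possible with 1 array per group, and the number of arrays limits the precision. All 37 genes are described, those 2-fold apart in any comparison or 1.5-fold with both siRNAs in full; from each related list the 4 with the largest smaller ratio in 1 direction, and any at 2-fold, are named. The genes and lists were chosen with earlier results of these data known. The promoters shown were chosen after their values were seen. Protein comparison of paralogs was not run. The script that counts genes past a fold was tested on simulated data, which tests no difference between the arrays. Python 3.11.15, numpy 2.4.6, pandas 2.3.3 and matplotlib 3.10.9 were used.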

Additional observations from a re-analysis of the deposited data

How the results depend on the processing

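The counts and list medians were recomputed under the alternatives, 107 values in all. Of these, 92 kept within 1.5 times of the count or within 0.15 (log2) of the median. That 0.15 is the largest difference between arrays among 18 bacterial spike probe sets. A siRNA1 list median (-0.10) moved to 0.00 would also have counted as kept, and counts of 0 that stayed at 0 did. The 92 is therefore no measure of how firm the small medians are. Under the alternatives the siRNA1 list median lay between -0.10 and -0.21. The 2-fold count lower with siRNA1 (2) was 1 among genes with a mean of at least 100, since PFKFB4 is dimmer, and 5 at 1.5-fold. It stayed at 2 by the next brightest probe set, but with HK2 (-1.32) in place of PFKFB4 (0.00). The median over probe sets, which puts PFKFB4 at -0.51, also gave 2 with HK2 in its place. With siRNA2 the count higher (1) was 0 by the next brightest probe set, which ADM lacks, and 3 at 1.5-fold, and the count lower (0) was 1 with median-centred arrays (EGLN3, -1.01) and 4 at 1.5-fold. The count lower with both (0) was 1 at 1.5-fold. Between the siRNA arrays the count lower with siRNA1 (2) was 1 by the next brightest probe set (HK2) and 9 at 1.5-fold. EGLN3, the gene at least 2-fold higher there, dropped to a count of 0 with the 70th percentile floor, the median over probe sets, the next brightest probe set, without _s_at and _x_at probe sets and above a mean of 100. The list median between the siRNA arrays moved from -0.21 to -0.045 by the next brightest probe set, which 18 genes have. Role-group medians are not among the 107 values, and some moved as well. The core chain median with siRNA1 (-0.34) was -0.19 by the median over probe sets and -0.12 by the next brightest. For hypoxia targets outside glycolysis the siRNA2 median (0.37) was -0.11 and -0.41 by these choices. By the next brightest, their siRNA1 median (-0.01) was -0.56, and that between the siRNA arrays (-0.77) was -0.58. Without _s_at and _x_at probe sets 19 genes were measured. No paired analysis was possible because each group has 1 array. Values near the floor, such as those of EGLN3, ALDOC and PFKFB2, are limited by signal over background.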
